A study of Mus musculus with 4 samples.

Results

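Microtubule-associated proteins and stathmins were described here as a group of 10 genes out of the 29300 genes counted in the mouse hippocampus. The members were the rows of the count table with the symbols Map1a, Map1b, Map2, Map4, Map6, Stmn1, Stmn2, Stmn3, Stmn4 and Dclk1, and each symbol occurred once. All animals were wild-type males of the strain C57BL/6, 7 to 8 months old. All of them received isoflurane anesthesia and tramadol, given for analgesia. The 2 control mice (labelled sham) had no operation, and the 2 surgery mice had an open tibial fracture held by an intramedullary nail, the procedure used as a model of perioperative neurocognitive disorder. Whole hippocampal tissue was taken on day 1 after the procedure. Poly(A) RNA of each mouse was sequenced as 1 library. The comparison asks how the transcripts of these genes differed between the groups, and in bulk tissue fewer cells of a type cannot be told apart from less RNA per cell.

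Microtubules are polymers of tubulin that carry transport along axons and dendrites and give neurites their shape. Structural microtubule-associated proteins bind along the polymer and stabilize or bundle it, with MAP2 found mainly in dendrites and cell bodies, and MAP1B abundant in growing axons. Stathmins do the opposite, since they bind free tubulin dimers and favor disassembly, and they are turned off by phosphorylation. Doublecortin-like kinase 1 joins a microtubule-binding region to a protein kinase. In the adult hippocampus several of these genes are also known from newborn granule neurons.

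The libraries held 15763432 to 18573386 counts, and mice of the same group differed beyond counting error. All 6 markers of hippocampal neurons were present in every mouse, at 62.8 CPM or more (CPM is the count scaled to a common library size). Of these 6, Fibcd1, Wfs1 and Grik4 fell by 0.64, 0.70 and 0.61 on the log2 scale in surgery mice, and Neurod6 and Zbtb20 rose by 0.53 and 0.44. The 6 general neuron markers summed to 5556 and 5347 CPM in control mice against 5194 and 5002 in surgery mice, with Syn1 and Eno2 lower by the test (log2 fold changes of -0.37 and -0.35). Of 6 astrocyte markers 3 rose (Aqp4, Slc1a2 and Gja1) and 1 fell (Aldh1l1), with sums of 3557 and 3305 against 4105 and 3883 CPM. Of 5 nuclear RNAs 2 rose (Malat1 and Snhg11) and 1 fell (Miat), with sums of 7828 and 7669 against 8647 and 9827 CPM. Of 6 endothelial markers Flt1 and Slco1a4 rose, with sums of 192 and 198 against 223 and 287 CPM, and of 5 markers of oligodendrocyte precursors Olig2 and Cspg4 fell, with sums of 243 and 232 against 211 and 183 CPM. Of 6 microglia markers P2ry12 rose, with sums between 227 and 240.3 CPM in all mice. The part of these shifts in the values of the members was not tested. The first control mouse stood apart in 5 choroid plexus markers, with a sum of 121 CPM against 1993 to 5329 in the other mice. The 12 tested transcripts of the mitochondrial genome summed to 28779 and 25652 CPM in control mice against 43860 and 43985 in surgery mice. Of these 12, 11 passed the test as higher, and the middle of the list lay at 1.09 on the log2 scale. Once the trends of each library with exon length and GC content were removed, mt-Nd6 alone passed and the middle lay at 0.17. Among the markers of the other lists, only Grik4 (lower) and Snhg11 (higher) passed in that fit. Whether the counting used strand is not given in the sources used here. Exons of Map1a share 272 bases with those of Ppip5k1 on the opposite strand, those of Map2 share 124 bases with the antisense gene Gm10558, and those of Dclk1 share 87 and 27 bases with Gm42609 and Gm21954, at most 2.24% of the exon length of a member. Exons of Stmn1 share 66 bases (3.43%) with the miRNA gene Gm23634 on the same strand.

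Of the 10 members, 3 rose in surgery mice, 0 fell and 7 did not pass the test. Map2 rose by 43.9%, Stmn1 by 39.0% and Map1b by 18.9%. The test was the quasi-likelihood test of edgeR, adjusted by the Benjamini-Hochberg method over the 17144 genes that passed the filter on low counts, and a gene passed at an adjusted p-value under 0.05. All 10 members passed the filter. Over all genes tested, 13.1% were called higher and 12.8% lower, while 3 of the 10 members were called higher and 0 lower. All members had many counts, with a mean of 112 to 1583 CPM. Among the 2026 genes with a mean CPM at least that of the lowest member, 15.9% were called higher and 41.0% lower. With the fold change used by the study added to the rule (at least 1.5 or at most 0.67), 0 members were called, against 6.75% of all genes in the higher direction and 2.25% in the lower. At an unadjusted p-value under 0.05, 3 members were higher and 1, Map1a, was lower, against 19.9% and 19.4% of all genes. DESeq2 at an adjusted p-value under 0.05 also gave 3 higher and 1 lower, Map1a, where 14.6% of the 12490 genes it tested were called higher and 16.9% lower. With the trends of each library with exon length and GC content removed, edgeR called 0 members higher and 0 lower, where 0.590% of all genes were called higher and 1.10% lower. The median log2 fold change, surgery over control mice, was 0.04 over the members and 0.01 over all genes tested.

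Both surgery mice lay above both control mice in 4 members and below both in 1, and the groups overlapped in the other 5. Over all genes tested, 33.2% had both surgery mice above and 32.2% had both below. Map1b, Map2, Stmn1 and Dclk1 were the 4 that lay above, and Map1a was the 1 that lay below.

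**Figure D1:**
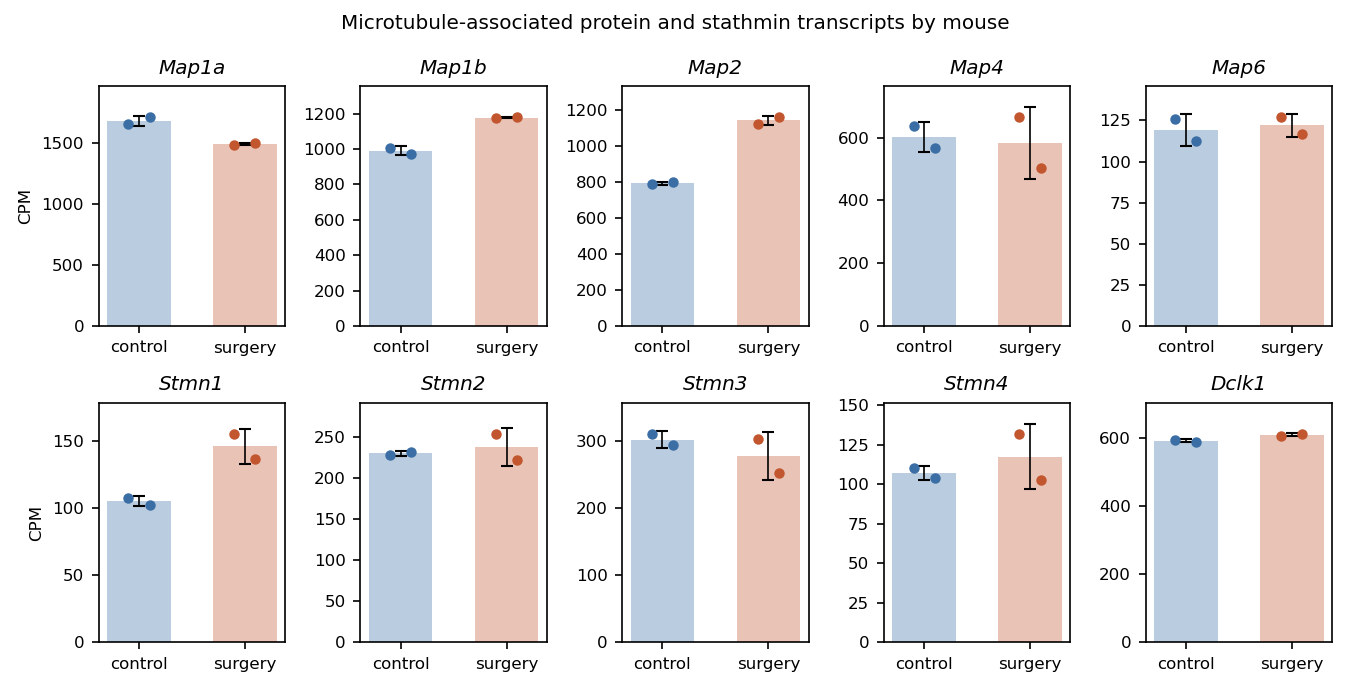
Level of each member in CPM (vertical axes, from 0, on a scale of their own for each gene) in the 2 control and the 2 surgery mice. Points are mice, bars are group means and error lines are SD (n = 2). Map2, Stmn1 and Map1b are higher in both surgery mice, and the points of Map4, Map6, Stmn2, Stmn3 and Stmn4 overlap between groups.

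The promoters of Map1a, Map1b and Map2 are shown because Map1b and Map2 rose while Map1a, the close relative of Map1b, was at a lower level in both surgery mice. Each is the RefSeq sequence (GRCm38.p6) from 250 bases before to 50 bases after a listed start, 5′ to 3′, and capitals mark the only match to the motifs searched. They lie at chr2:121289352-121289651 on the plus strand, chr13:99516553-99516852 on the minus strand and chr1:66175079-66175378 on the plus strand.
Map1a promoter: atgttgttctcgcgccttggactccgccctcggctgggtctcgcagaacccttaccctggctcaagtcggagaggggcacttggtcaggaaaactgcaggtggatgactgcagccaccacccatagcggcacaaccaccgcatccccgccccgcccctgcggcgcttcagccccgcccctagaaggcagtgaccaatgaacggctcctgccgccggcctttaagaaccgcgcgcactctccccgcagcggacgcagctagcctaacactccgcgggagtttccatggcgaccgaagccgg
Map1b promoter: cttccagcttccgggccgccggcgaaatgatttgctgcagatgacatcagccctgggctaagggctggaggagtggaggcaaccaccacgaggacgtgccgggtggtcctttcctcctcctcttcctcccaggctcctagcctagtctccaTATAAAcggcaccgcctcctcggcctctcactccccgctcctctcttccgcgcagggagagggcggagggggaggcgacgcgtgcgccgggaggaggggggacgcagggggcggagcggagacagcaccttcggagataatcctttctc
Map2 promoter: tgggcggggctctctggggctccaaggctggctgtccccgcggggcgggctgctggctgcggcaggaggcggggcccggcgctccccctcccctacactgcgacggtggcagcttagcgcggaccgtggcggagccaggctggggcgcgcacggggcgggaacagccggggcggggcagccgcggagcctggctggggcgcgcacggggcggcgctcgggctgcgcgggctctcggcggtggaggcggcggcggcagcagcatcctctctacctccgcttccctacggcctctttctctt
The GC content was 65.7% in the promoters of Map1a and Map1b and 77.7% in that of Map2, against a median of 52.7% over the 32851 promoters listed. RefSeq promoters were found for 6 of the 10 members, 8 sequences in all. Both strands of the 8 were searched for the palindromic consensus of NRF1, for the cAMP response element (TGACGTCA), for the E-box CACGTG and for the TATA box (TATAAA). No member's sequence held the first 3 motifs, which occur in 0.971%, 1.79% and 7.15% of all promoters. The TATA box letters occur in that of Map1b and in 13.6% of all promoters. These matches describe letters in this window and were not tested as sites.

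The MAP1 family encodes large filamentous proteins that are cut into heavy and light chains and bind along microtubules. Map1b (ENSMUSG00000052727, mm10 chromosome 13, 99421446 to 99516540, minus strand) had 1008 and 973 CPM in control mice against 1176 and 1180 in surgery mice. The surgery mice lay close together and above both control mice. The mean rose from 991 ± 24.8 to 1178 ± 2.86 CPM (SD, n = 2). Its log2 fold change was 0.25 with a standard error of 0.06 (adjusted p = 0.022 by edgeR with Benjamini-Hochberg adjustment). Map1a (ENSMUSG00000027254, mm10 chromosome 2, 121289600 to 121310832, plus strand), which takes over from Map1b as neurons mature, took the most counts of the members. It had 1651 and 1707 CPM in control mice against 1480 and 1496 in surgery mice. Here the surgery mice lay below both control mice, with a log2 fold change of -0.17 (standard error 0.06, 95% confidence interval -0.31 to -0.04). This missed the threshold (adjusted p = 0.068 by the same edgeR test), while DESeq2 gave an adjusted p of 0.010. The call of Map1b was lost when some of the mice were left out. Its log2 fold change stayed between 0.22 and 0.27 when a mouse was left out, and its adjusted p by edgeR, rounded, was 0.050 (just missing the threshold) without the first control mouse or the first surgery mouse and 0.11 without the second control mouse. With the length and GC trends removed it was 0.15 (adjusted p = 0.24 by edgeR).

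Because both genes were counted in the same libraries, their ratio does not depend on how the libraries were scaled, although it can still hold trends with exon length and GC content. Per kilobase of exon, the level of Map1b was 0.469 and 0.438 times that of Map1a in control mice against 0.610 and 0.606 times in surgery mice. The groups did not overlap, and the ratio was 1.34-fold higher in surgery mice (0.42 on the log2 scale). With the length and GC trends removed, the difference was 0.13 on the log2 scale. With 2 mice against 2, the exact two-sided permutation test gives p = 0.333, the smallest p it can give. The summed CPM of the 2 genes was 2659 and 2680 in control mice against 2656 and 2676 in surgery mice. The total of these 2 genes was thus nearly level in all 4 mice. Their relative Map1s, given below with the related genes, is not in this sum.

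The MAP2 and tau family shares a repeated microtubule-binding region near the carboxyl end. Map2 (ENSMUSG00000015222, mm10 chromosome 1, 66175273 to 66442583, plus strand), a classical marker of dendrites, had 789 and 800 CPM in control mice against 1126 and 1161 in surgery mice. Both surgery mice lay well above the control mice, and the mean rose from 795 ± 7.91 to 1144 ± 24.9 CPM (SD, n = 2). The log2 fold change was 0.53 with a standard error of 0.06 (adjusted p = 0.0045 by edgeR), larger than that of 84.3% of all genes tested. It stayed between 0.51 and 0.53 without any 1 of the 4 mice, with an adjusted p of at most 0.012 by edgeR, but with the length and GC trends removed it was 0.19 (adjusted p = 0.15 by edgeR). Map4 (ENSMUSG00000032479, mm10 chromosome 9, 109931460 to 110083955, plus strand), the member of the family that is also expressed widely outside neurons, had 636 and 568 CPM in control mice against 665 and 503 in surgery mice. The groups overlapped, and the surgery mice spread more widely than the distance between the group means. Its log2 fold change was -0.04 with a 95% confidence interval of -0.36 to 0.27 (adjusted p = 0.84 by the same edgeR test), and it went to 0.15 without the second surgery mouse and -0.27 without the first. The ratio of Map2 to Map4 per kilobase of exon was 1.14 and 1.30 in control mice against 1.56 and 2.13 in surgery mice, a difference of 0.58 on the log2 scale (exact permutation p = 0.333), or 0.17 with the length and GC trends removed. The difference was 0.36 without the second surgery mouse and 0.80 without the first.

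MAP6, also called STOP, protects microtubules from cold and from drugs that dissolve them. Map6 (ENSMUSG00000055407, mm10 chromosome 7, 99267447 to 99337137, plus strand) was the lowest member per kilobase of exon, with 126 and 112 CPM in control mice against 127 and 117 in surgery mice. The groups overlapped, and its log2 fold change was 0.03 (95% confidence interval -0.16 to 0.23, adjusted p = 0.80 by edgeR).

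Among the stathmins, Stmn1 rose and the other 3 did not pass the test. Stmn1 (ENSMUSG00000028832, mm10 chromosome 4, 134468320 to 134473843, plus strand) encodes the cytosolic founding member of the family, found in many dividing and immature cells and in adult neurons. It had 108 and 103 CPM in control mice against 155 and 137 in surgery mice, and the groups did not overlap. The mean rose from 105 ± 3.65 to 146 ± 13.1 CPM (SD, n = 2). Its log2 fold change was 0.48 with a standard error of 0.08 (adjusted p = 0.0092 by edgeR with Benjamini-Hochberg adjustment). Without any 1 of the 4 mice it was between 0.37 and 0.57, with an adjusted p of at most 0.034 by edgeR, and with the length and GC trends removed it was 0.33 (adjusted p = 0.10 by edgeR). Of its 75 nt windows of transcript sequence, 15.4% also occur in the pseudogene Gm11223, which was counted 30 and 14 times in control mice against 55 and 54 in surgery mice, so that reads of Stmn1 could have been split by the counting. Of 6 markers of newborn neurons and progenitors, 4 could be tested and 1, Sox11, rose. Their summed level was 15.6 and 12.5 CPM in control mice against 24.2 and 19.4 in surgery mice, with none of the 6 at 0 in any mouse. Without Sox11 the other 5 summed to 7.26 and 5.09 CPM in control mice against 9.41 and 4.44 in surgery mice, and the groups overlapped. Their part in the rise of Stmn1 was not tested.

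Stmn2, Stmn3 and Stmn4 encode the neuronal stathmins, which carry a lipid-modified amino end that holds them on membranes. Stmn2 (ENSMUSG00000027500, mm10 chromosome 3, 8509360 to 8561606, plus strand), known for its role in axon growth and repair, had 228 and 232 CPM in control mice against 254 and 221 in surgery mice. Its control mice lay between the surgery mice, and the log2 fold change was 0.05 (95% confidence interval -0.14 to 0.23, adjusted p = 0.70 by edgeR). Stmn3 (ENSMUSG00000027581, mm10 chromosome 2, 181306459 to 181314500, minus strand) was the highest stathmin per kilobase of exon, with 311 and 294 CPM in control mice against 303 and 253 in surgery mice. The groups overlapped, with a log2 fold change of -0.12 (95% confidence interval -0.35 to 0.10, adjusted p = 0.38 by edgeR). Stmn4 (ENSMUSG00000022044, mm10 chromosome 14, 66344296 to 66361680, plus strand) had 110 and 104 CPM in control mice against 132 and 103 in surgery mice. The surgery mice enclosed the control mice, and the log2 fold change was 0.13 (95% confidence interval -0.16 to 0.41, adjusted p = 0.47 by edgeR).

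For Stmn3 and Stmn4 the values depended on which surgery mouse was left out. Such a fit leaves 1 mouse in that group, which is assumed to vary like the mice of the other group. The log2 fold change of Stmn3 was -0.27 without the first surgery mouse (adjusted p = 0.042 by edgeR) and 0.01 without the second, and that of Stmn4 was 0.30 without the second surgery mouse (adjusted p = 0.047 by edgeR) and -0.08 without the first. The second surgery mouse had the lowest CPM of the 4 mice in Map4, Stmn2, Stmn3 and Stmn4. In the same mouse the summed level of 6 oligodendrocyte markers was 3927 CPM, against 6183 and 5329 in the control mice and 6084 in the first surgery mouse. None of the 6 markers passed the test, and their part in the spread of these members was not tested.

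Within the family, ratios to Stmn3 per kilobase of exon did not overlap between the groups for any of the other 3 stathmins. These ratios share the denominator Stmn3, so they are not 3 separate results. How often ratios of other gene pairs do not overlap was not computed. In CPM, 33.2% of all genes tested had both surgery mice above and 32.2% had both below. The ratio of Stmn1 to Stmn3 was 0.2045 and 0.206 in control mice against 0.303 and 0.320 in surgery mice, 1.52-fold higher. That of Stmn2 was 0.148 and 0.160 in control mice against 0.170 and 0.177 in surgery mice, and that of Stmn4 was 0.210 and 0.210 against 0.258 and 0.241. Each of the 3 ratios has an exact permutation p of 0.333, the smallest p possible here, and 5 ratios were computed in all. With the length and GC trends removed, the difference for Stmn1 went from 0.60 to 0.21 on the log2 scale and that for Stmn4 from 0.25 to 0.12, while that for Stmn2 turned from 0.17 to -0.43.

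Dclk1 (ENSMUSG00000027797, mm10 chromosome 3, 55242364 to 55539068, plus strand) varied little between mice. It had 594 and 588 CPM in control mice against 605 and 611 in surgery mice. Both surgery mice were above both control mice, but by little, and the log2 fold change was 0.04 (95% confidence interval -0.09 to 0.17, adjusted p = 0.61 by edgeR with Benjamini-Hochberg adjustment).

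Per kilobase of exon, the order of levels in the control mice ran from Stmn3 (267 ± 10.7 CPM per kb) and Map1a (138 ± 3.26) through Map1b (62.5 ± 1.57), Stmn4 (56.0 ± 2.27), Stmn1 (54.7 ± 1.90), Map2 (48.3 ± 0.481), Stmn2 (41.1 ± 0.533), Map4 (39.7 ± 3.17) and Dclk1 (38.7 ± 0.282) to Map6 (13.0 ± 1.04), each as mean and SD of 2 mice. The ranges of Stmn4 and Stmn1 overlapped, as did those of Stmn2 and Map4 and those of Map4 and Dclk1. In the surgery mice Stmn1 (76.1 ± 6.81 CPM per kb) was no longer below Map1b (74.3 ± 0.181), and their ranges overlapped. The range of Map2 (69.5 ± 1.51) likewise overlapped that of Stmn4 (61.3 ± 10.8), and those of Stmn2 (42.4 ± 4.07), Dclk1 (39.8 ± 0.275) and Map4 (38.6 ± 7.57) overlapped one another. The length is that of all annotated exons of a gene together, which exceeds that of any single transcript for genes with many isoforms, such as Map2 with 24 annotated transcripts.

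**Figure D2:**
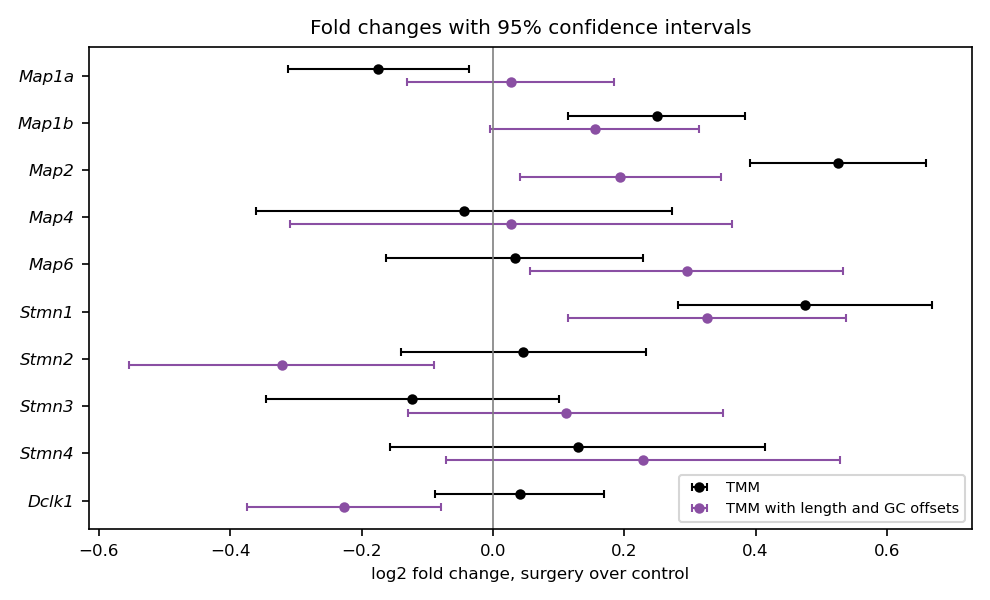
Log2 fold change of surgery over control mice (horizontal axis) for each member with its 95% confidence interval, from edgeR with TMM scaling (black) and with the trends of each library with exon length and GC content also removed (purple). Map2, Stmn1 and Map1b are to the right of 0 in black, and the purple values of Stmn2 and Dclk1 lie at -0.32 and -0.23.

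Transcript GC content moved with the fold change over all genes, and the members were spread along it. The 3 members that rose had GC contents of 44.0% (Map2), 47.5% (Stmn1) and 48.3% (Map1b), and Map1a had 55.5%. In the eighths of all tested genes by GC content that hold Map2, Stmn1 and Map1b, the median log2 fold change was 0.31, 0.18 and 0.04, below the value of each of the 3. Stmn2 (43.6%) and Dclk1 (45.2%) share the eighth of Map2 and had 0.05 and 0.04, below its median of 0.31. At the other end Map6 (57.9%) and Stmn3 (57.3%) had 0.03 and -0.12 in an eighth with a median of -0.34.

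**Figure D3:**
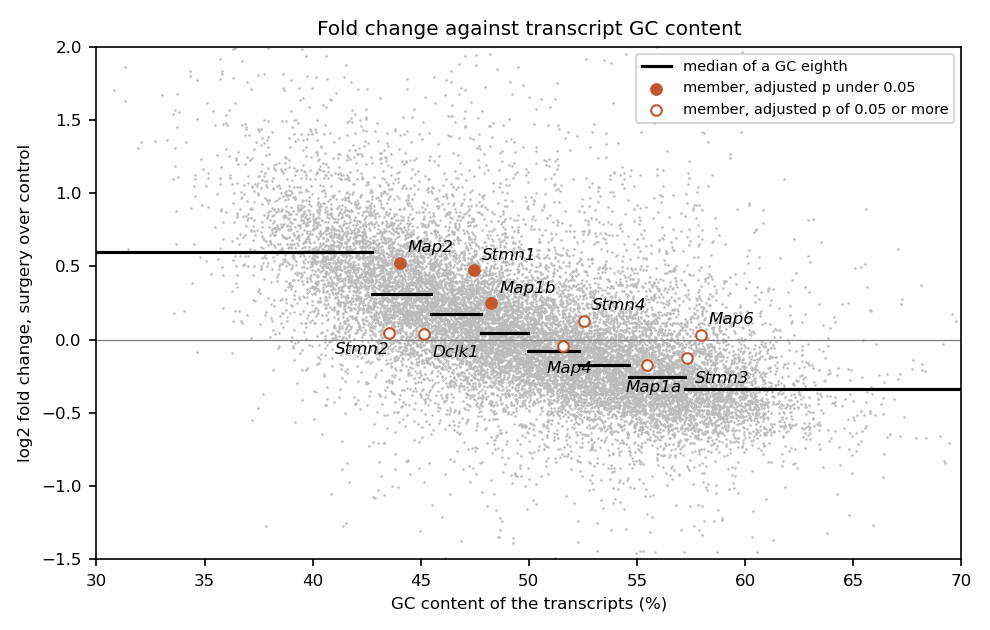
Log2 fold change of surgery over control mice (vertical axis) against the GC content of a gene's transcripts in percent (horizontal axis) for the genes tested, with genes beyond the axis limits not drawn. Black lines are medians of the eighths of genes by GC content, filled circles are members with an adjusted p under 0.05 and open circles the other members. Map2, Stmn1 and Map1b lie above the medians of their eighths, and Stmn2 and Dclk1 lie below theirs.

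When the trend of each library with exon length and GC content was removed in the same edgeR fit, 0 of the 10 members passed in either direction. The values of the 3 members that rose stayed positive, at 0.33 for Stmn1 (95% confidence interval 0.11 to 0.54, adjusted p = 0.10 by edgeR), 0.19 for Map2 (0.04 to 0.35, adjusted p = 0.15 by edgeR) and 0.15 for Map1b (-0.0040 to 0.31, adjusted p = 0.24 by edgeR). Map1a went from -0.17 to 0.03. In contrast, Stmn2 moved to -0.32 (95% confidence interval -0.55 to -0.09) and Dclk1 to -0.23 (-0.37 to -0.08), while Map6 moved to 0.30 (0.06 to 0.53). Their adjusted p-values by edgeR were 0.13, 0.10 and 0.15.

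Other genes that act on microtubules were taken from 6 lists of 71 genes, of which 70 could be tested. Of these, 13 rose (18.6%, against 13.1% of all genes), 15 fell (21.4%, against 12.8%) and 42 did not pass. Their median log2 fold change was -0.09. Among the 2026 genes with a mean CPM at least that of the lowest member, 15.9% were called higher and 41.0% lower. Many of the related genes reached that level and many lay below it. Without the second control mouse or without the second surgery mouse, fewer related genes were called lower, and so were fewer of all genes tested. With the length and GC trends removed 1 rose, Clip1, and 1 fell, Mapk10.

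Among 13 other proteins that bind along the microtubule, 3 rose and 2 fell, with a median of -0.19. Map7d2, which helps recruit kinesin, rose by 0.58 on the log2 scale, Map9 by 0.45 and Dcx, the marker of migrating young neurons, by 0.41. Map1s, the short and widely expressed relative of Map1a and Map1b, fell by 0.66 from 135 and 135 CPM in the control mice to 86.5 and 83.5 in the surgery mice (adjusted p = 0.0043 by edgeR with Benjamini-Hochberg adjustment). Among 15 proteins that bind microtubule ends, 5 rose and 2 fell, with a median of 0.02. Those with the largest rise were Mapre1, which encodes the end-binding protein EB1 (0.53), Clip1 (0.47), the minus-end binder Camsap2 (0.40) and Apc (0.36). With the length and GC trends removed these were at 0.15, 0.39, 0.20 and 0.06, and Clip1 alone passed. Map7d2, Map9, Dcx and Map1s were then at 0.44, 0.10, -0.07 and -0.33, and none of them passed.

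Of 5 collapsin response mediator proteins, which bind tubulin dimers in growing axons, 0 rose and 2 fell, with a median of -0.28. Crmp1 fell by 0.41 on the log2 scale and Dpysl4 by 0.40. Of 8 severing enzymes and their subunits, 2 rose, with a median of 0.13. Katnbl1, which encodes a katanin regulator, rose by 1.33 from 4.18 and 4.27 CPM in the control mice to 10.3 and 11.0 in the surgery mice, and Spast (spastin) rose by 0.66. Both also passed the fold change of the study, as did Map1s and Gsk3a among the other related genes.

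Of 15 tubulin-modifying enzymes, 1 rose and 3 fell, with a median of -0.16. Ttll7, a polyglutamylase, rose by 0.25 on the log2 scale, and Ttll1, the deacetylase Hdac6 and the tyrosine ligase Ttl fell by 0.34, 0.31 and 0.28. Of 14 kinases and kinase activators that act on microtubule-associated proteins and stathmins, 2 rose and 5 fell, with a median of -0.09. The paralogs Gsk3a and Gsk3b went opposite ways, with Gsk3a at 134 and 141.5 CPM in control mice against 91.4 and 91.8 in surgery mice (log2 fold change -0.59, adjusted p = 0.0045 by edgeR) and Gsk3b at 148 and 147 against 194 and 206 (0.44, adjusted p = 0.0061 by edgeR). With the length and GC trends removed, Gsk3a was at -0.30 and Gsk3b at 0.15 (adjusted p = 0.071 and 0.22 by edgeR), and neither passed. Cdk5 fell by 0.33 and its activator gene Cdk5r2 by 0.39. The genes named were the up to 4 largest called changes of each list, and the following were named after their values were seen. Clasp2 and Mapk8 also rose, and Dclk2, Clip2, Mapre3, Mapk3 and Mark4 also fell. Mapk10, named above, was chosen in the same way. Mapt, the gene of tau, had 576 and 558 CPM in control mice against 516 and 476 in surgery mice (-0.19, adjusted p = 0.069 by edgeR).

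**Figure D4:**
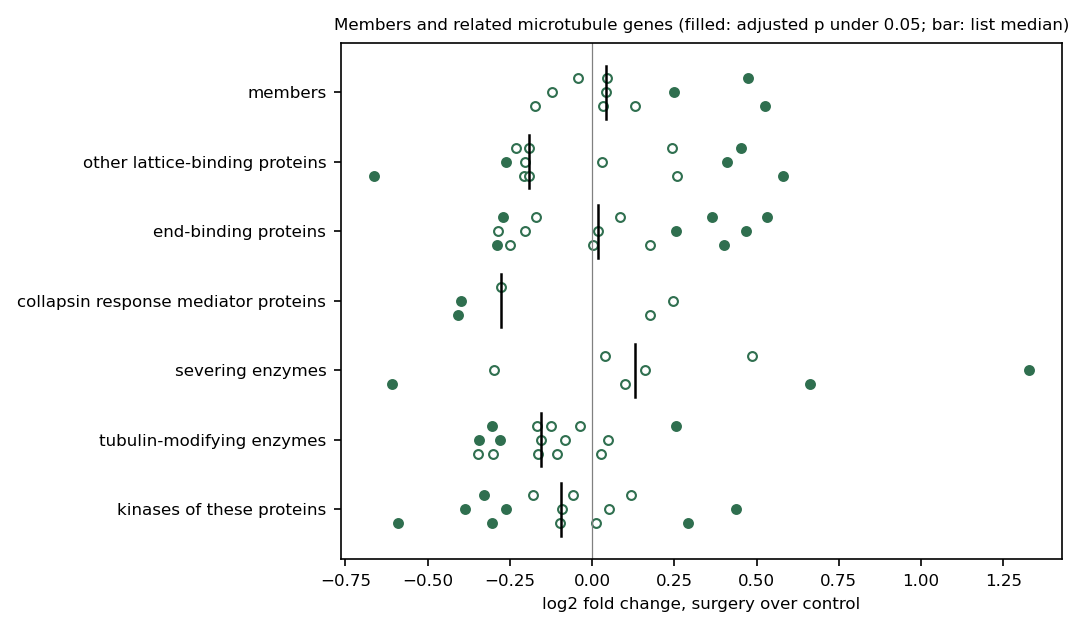
Log2 fold change of surgery over control mice (horizontal axis) for the members and the 6 lists of related genes. Each circle is a gene, filled where the adjusted p is under 0.05 by edgeR, and the bar is the median of the list. Filled circles lie on both sides of 0 among lattice-binding proteins, end-binding proteins, tubulin-modifying enzymes and kinases, and on the left alone among the collapsin response mediator proteins.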

How the data were processed

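Hippocampal RNA of 2 control and 2 surgery mice, grouped by the treatment label, was analysed. Read pairs of 150 nt were aligned by the authors to mm10 (HISAT), and the deposited values are raw read counts per gene and mouse. The submitters' processing notes list HISAT2 2.1.0, HTSeq 0.6.0, Bowtie2 2.2.3 and TopHat2. The deposited table also holds the authors' group means, fold changes, p-values and significance marks, which were not used. Genes were filtered with filterByExpr (minimum count 10), scaled by TMM and tested with edgeR 4.0.16 (R 4.3.3, limma 3.58.1), which shares the estimate of the spread between mice over genes, and the code was tested on simulated data. DESeq2 1.42.0, library totals, no filter, smooth offsets for exon length and GC content (mgcv 1.9.3, GENCODE M21), a replicate block and leaving out each mouse were alternatives. Fold changes compare surgery with control mice, and intervals are at 95%. All members were named, and from each related list up to 4 genes with the largest called change, of which 1 result is not reported here. The members and lists were chosen with earlier results of these data known.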

Additional observations from a re-analysis of the deposited data

How the results depend on the processing

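The log2 fold changes of the 10 members under the alternatives that kept all mice gave 70 values. Of these, 51 kept their direction and their side of the threshold. With the direction kept, 4 no longer passed it and 4 newly passed it. The other 11 changed sign. Among those 11, Stmn2 and Dclk1 with block and offsets together also passed the threshold (adjusted p = 0.028 and 0.016 by edgeR). Leaving out a mouse gave 40 values, of which 7 changed sign. No member passed the fold change of the study under any alternative. With length and GC offsets, 0 members were higher, and 1 related gene was higher and 1 lower. Leaving out a mouse, with the lone mouse of a group assumed to vary like the other group, gave 2 to 4 members higher and 0 to 1 lower (6.72% to 11.3% and 6.75% to 11.6% of all genes), and 9 to 12 related genes higher and 6 to 18 lower. The count of members lower was 1 without the filter (4.61% of all genes) and 1 with DESeq2, Map1a in both, and without the filter 8 related genes were lower. Changes of sign under length and GC offsets gave log2 fold changes of 0.027 for Map1a, 0.028 for Map4, -0.32 for Stmn2, 0.11 for Stmn3 and -0.23 for Dclk1. An alternative chosen after seeing the data took the ratios from the fit with length and GC offsets, which gave differences of 0.13 (Map1b to Map1a), 0.17 (Map2 to Map4), 0.21 (Stmn1 to Stmn3), -0.43 (Stmn2 to Stmn3) and 0.12 (Stmn4 to Stmn3). With library totals Map4 was at 0.0034. Without 1 mouse the range was -0.27 to 0.15 for Map4, -0.050 to 0.11 for Map6, -0.070 to 0.15 for Stmn2, -0.27 to 0.0073 for Stmn3 and -0.076 to 0.30 for Stmn4. The cause was not tested.

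The replicate numbers were shared by the groups only as names, and deviations of mice with the same number correlated at 0.22 over 17144 genes. With a replicate block 3 members were higher and 1, Map1a, lower (15.5% and 15.3% of all genes), and 15 related genes were higher and 20 lower. With the block and the length and GC offsets together 3 members were higher (Map2, Stmn1 and Map6, with Map1b at an adjusted p of 0.051 by edgeR) and 2, Stmn2 and Dclk1, lower (4.38% and 9.25% of all genes), and 8 related genes were higher and 13 lower. Log2 fold changes in that fit were 0.027 for Map1a, 0.016 for Map4, -0.33 for Stmn2, 0.11 for Stmn3 and -0.23 for Dclk1. With 2 mice a group, small effects could go uncalled. The intervals are not adjusted for the number of genes tested. Map1a, with an interval of -0.31 to -0.04, thus missed the threshold in the main fit (adjusted p = 0.068 by edgeR).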
